A study of Mus musculus with 50 samples.

Results

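The response of intermediate mouse digits during the first day after amputation was measured by RNA-seq of wound bed tissue, by comparing 3 digits collected 24 hours after the cut with 3 digits collected at 0 hours. These 6 libraries were taken by their labels from the 50 libraries of the series, which hold 41 digits and 9 macrophage cultures. The mice were male C57Bl/6 animals of 9 to 10 weeks, and the third hindlimb digit was cut through the distal terminal phalanx (P3), the bone that carries the nail. An intermediate cut removes more of P3 than a cut that regenerates and, by the study's definition, less than one that does not. The labelled share of P3 removed was 52%, 53% and 55% in 0-hour digits 1, 2 and 3. It was 41%, 50% and 52% in 24-hour digits 1, 2 and 3, so the 24-hour digits lie at or below the 0-hour digits in level. The mice carried no transgene, and no agent was given besides the isoflurane anesthesia for the cut. The 0-hour digits were cut like the others, so they are freshly wounded tissue rather than intact digits. Both hind feet of a mouse were operated in the study, and the sources used here do not tie digits to mice, so the p-values measure the spread between these digits only.

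A skin and bone wound is met within hours by resident cells that release cytokines and chemokines, which draw neutrophils and then monocytes out of the blood. Keratinocytes at the wound edge switch on stress keratins, proteases and adhesion molecules and begin to migrate over the gap. Matrix metalloproteinases, enzymes that cut collagen and other matrix proteins, open the path for these cells.

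The libraries held between 4638950 and 11980697 expected counts. Dates fall in an earlier period (July and August) and a later one (December). At 0 hours 2 digits were of the earlier period and 1 of the later one. At 24 hours 1 was of the earlier and 2 were of the later period. The labelled side was right in 0-hour digit 1 and 24-hour digit 2 and left in the other intermediate digits. The male-specific genes Ddx3y, Kdm5d, Uty and Eif2s3y were read in each of the 6 digits, at no less than 118 normalized counts. Keratinocyte genes were abundant, while of 14 skeletal muscle genes 2 passed the filter on low counts. The 24-hour digit 1 stood apart from the rest. Its Spearman correlation with the other 5 digits ran from 0.897 to 0.943, against 0.930 to 0.976 among those 5. It was the digit with the lowest level (41%) and the sole 24-hour digit of the earlier period, so level, date and the digit itself cannot be told apart.

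Of 13172 genes tested, 2 (0.0152%) passed an adjusted p of 0.05 with a change of more than 2-fold in edgeR's quasi-likelihood test: Mmp3 and Acod1 rose, and no gene fell. Without adjustment, 1143 genes (8.68%) were higher and 891 (6.76%) lower at a p under 0.05. In 1546 genes (11.7%) the 3 digits at 24 hours lay above all 3 at 0 hours, and in 1527 (11.6%) below. The number of calls moved with the fit. With the date period as a term, 135 genes (1.02%) were called, of which 112 (0.85%) were higher and 23 (0.175%) lower. DESeq2 called 350 genes (2.66%), 226 (1.72%) higher and 124 (0.941%) lower. Without 24-hour digit 1 there were 36 calls (0.265%) and without 24-hour digit 2 there were 37 (0.272%), whereas leaving out any other digit left between 1 and 3. Below, a gene is said to have risen only if it passed the main test, and calls with the date term are named as such.

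Mmp3 encodes stromelysin 1, a matrix metalloproteinase that also activates other members of its family. It had 128, 61.7 and 140 normalized counts in the 0-hour digits and 5384, 4287 and 5491 in the 24-hour digits. The groups were far apart and the 24-hour digits lay close together, including digit 1. The log2 fold change was 5.53 ± 0.35 (SE, n = 3 against 3, edgeR adjusted p = 0.0024), and it stayed between 5.24 and 5.72 when each digit was left out. Within the earlier period the log2 difference was 5.73 and within the later one 5.25. Mmp3 was called in each of the 17 alternative fits. Per length, Mmp3 went from a mean of 13.2 ± 5.13 normalized TPM at 0 hours to 593 ± 87.0 at 24 hours (SD, n = 3).

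Acod1 encodes the enzyme of activated myeloid cells that makes itaconate. It had 1.28, 0 and 0 normalized counts at 0 hours, which are 2 reads in 1 digit, and 385, 99.0 and 208 at 24 hours. The pooled counts, 2 against 638, gave a ratio of 361 with a 95% exact interval from 99.6 to 2990 that covers counting error only. In edgeR the adjusted p was 0.045. The call did not hold without 0-hour digit 1, 2 or 3 or without 24-hour digit 3, and Acod1 was called in 8 of the 17 alternative fits, in which its adjusted p ran from 8.56e-11 to 0.39.

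The promoters of both genes that rose are printed here with those of Lif and Cxcl2, a cytokine and a chemokine gene from the groups described next. The sequences are the 250 bases before the start site from RefSeq on GRCm38.p6, read 5′ to 3′ on the plus strand, and capitals mark matches to 4 motifs searched on both strands. Mmp3 lies at chr9:7445822-7455975 and its promoter at chr9:7445572-7445821. Acod1 lies at chr14:103046977-103056573 with its promoter at chr14:103046762-103047011. The Lif promoter is at chr11:4257318-4257567 and that of Cxcl2 at chr5:90903649-90903898. The windows of Acod1, Lif and Cxcl2 end past the start of the gene coordinates used here (103046977, 4257557 and 90903871), which differs from the RefSeq start. Motif distances below are counted from the RefSeq start at the end of each window.
Mmp3: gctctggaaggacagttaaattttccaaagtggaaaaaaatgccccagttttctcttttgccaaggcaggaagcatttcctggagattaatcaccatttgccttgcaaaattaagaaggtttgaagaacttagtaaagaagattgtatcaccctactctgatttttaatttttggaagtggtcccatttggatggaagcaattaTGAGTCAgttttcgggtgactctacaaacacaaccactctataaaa
Acod1: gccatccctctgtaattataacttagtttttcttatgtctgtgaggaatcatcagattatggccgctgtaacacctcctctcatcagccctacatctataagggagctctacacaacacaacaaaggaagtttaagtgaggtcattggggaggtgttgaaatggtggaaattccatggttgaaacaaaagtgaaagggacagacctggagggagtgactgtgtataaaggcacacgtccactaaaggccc
Lif: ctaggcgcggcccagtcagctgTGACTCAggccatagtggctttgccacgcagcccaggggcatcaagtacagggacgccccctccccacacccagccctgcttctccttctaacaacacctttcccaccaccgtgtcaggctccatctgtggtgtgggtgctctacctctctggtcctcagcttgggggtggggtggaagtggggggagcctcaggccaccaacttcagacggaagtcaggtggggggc
Cxcl2: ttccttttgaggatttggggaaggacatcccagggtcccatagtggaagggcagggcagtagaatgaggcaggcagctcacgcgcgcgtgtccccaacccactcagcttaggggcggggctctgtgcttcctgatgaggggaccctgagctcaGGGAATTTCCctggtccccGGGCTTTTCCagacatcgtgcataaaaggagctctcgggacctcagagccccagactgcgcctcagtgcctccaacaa
The Mmp3 promoter held 1 match to the AP-1 motif TGANTCA, 46 bases before the start, and the Lif promoter held 1, 228 bases before it. The Cxcl2 promoter held 2 matches to the NF-kB motif, GGG and TTTCC parted by any pair of bases, 97 and 78 bases before the start. Neither the STAT motif TTCNNNGAA nor the E-box CACGTG was in these windows, and the Acod1 window held none of the 4. Over 32851 promoter windows of 300 bases in the RefSeq table, 7.81% held the AP-1 motif, 1.63% the NF-kB motif, 8.30% the STAT motif and 7.15% the E-box. RefSeq promoters could be matched to 72.6% of the 401 genes (3.04%) that were more than 2-fold higher at an unadjusted p under 0.05, which is too few to compare motif shares between groups of genes, so the planned comparison is void.

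**Figure D1:**
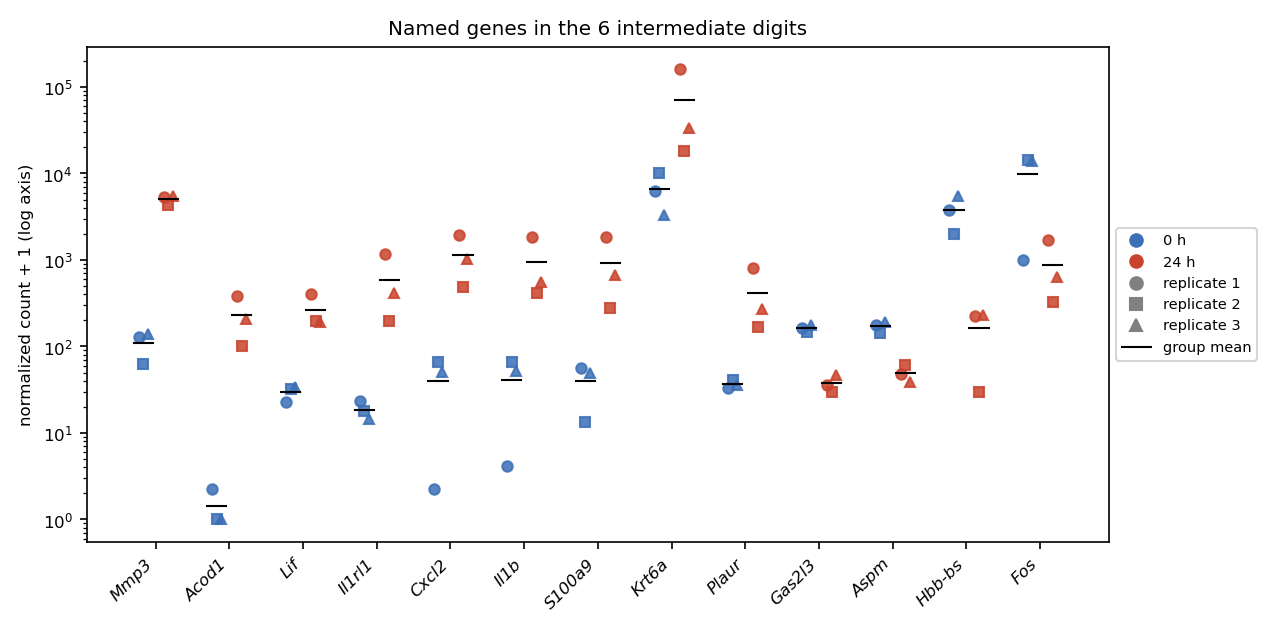
Normalized counts plus 1 (log axis) of 13 genes in the 3 digits at 0 hours (blue) and the 3 at 24 hours (red), with a marker shape per replicate and a black line at the group mean plus 1. Mmp3 goes from between 61.7 and 140 counts to between 4287 and 5491 with little spread, whereas Krt6a spreads from 18143 to 159309 at 24 hours and Fos is split at 0 hours.

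Genes of inflammatory signals were higher in many members. A list of 22 inflammatory cytokines and receptors had 13 members past the filter on low counts, of which 10 lay above their 0-hour range. Of the 13, 0 were called by edgeR, 9 were higher at an unadjusted p under 0.05 and 0 lower. The date term called 6 and DESeq2 6. Over all genes tested 8.68% were higher and 6.76% lower at this p, and 11.7% lay above and 11.6% below their 0-hour range. Members that passed this filter only through high 24-hour values had to differ, so these counts describe the list and do not test it. These shares and this limit apply to each list below as well. Lif, a cytokine of the interleukin-6 family, had 21.7, 31.4 and 33.0 normalized counts at 0 hours and 404, 195 and 190 at 24 hours (log2 difference 3.21 ± 0.38, edgeR adjusted p = 0.078). Il1rl1, the receptor for interleukin-33, went from 22.4, 16.7 and 13.5 to 1162, 198 and 410 (5.01 ± 0.68, adjusted p = 0.093). Its ligand gene Il33 had 134, 141 and 155 counts at 0 hours and 1850, 173 and 526 at 24 hours. In these 3 genes the groups did not overlap, and 24-hour digit 1 was the highest digit. Il1b, the gene of interleukin-1 beta, had 3.20, 65.9 and 51.0 counts at 0 hours and 1859, 409 and 555 at 24 hours (edgeR adjusted p = 0.12), and it was called with the date term. Osm, Osmr and Il24 were also called with the date term. Il24 had no count in any 0-hour digit and 177 pooled counts at 24 hours, at least 66.8-fold higher against a floor of 3 counts over the group.

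Nlrp3, the sensor of the inflammasome that processes interleukin-1 beta, had 2.56, 10.5 and 12.01 normalized counts at 0 hours and 577, 128 and 225 at 24 hours (log2 difference 5.35 ± 0.74, edgeR adjusted p = 0.093). Its 24-hour values lie well above its 0-hour values, with the highest again in digit 1. Among 15 listed genes of NF-kB subunits and of feedback inhibitors of NF-kB and cytokine signalling, 14 were tested. At an unadjusted p under 0.05, 4 were higher and 1 lower (Zfp36), against 8.68% and 6.76% of all genes. EdgeR called 0 in the main test, and the date term called Bcl3 and Socs3 higher. DESeq2 called 1 higher and 1, Zfp36, lower. Nfkbia, the NF-kB inhibitor alpha, had 549, 906 and 611 counts at 0 hours and 1169, 1597 and 1040 at 24 hours (adjusted p = 0.18). Ptgs2, the inducible cyclooxygenase of prostaglandin synthesis, ran from 31.3 to 427 counts at 0 hours and from 387 to 2252 at 24 hours. Its groups overlapped, and it was called with the date term alone among the 17 alternatives.

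In a list of neutrophil-attracting chemokines, most of which act through CXCR2, 3 of 6 tested genes were higher and 1 lower (Ppbp) at an unadjusted p under 0.05, and 0 were called by edgeR. Ppbp and Pf4, the other listed member with lower counts, are platelet chemokines and are named after their values were seen. Ppbp had 18.5, 85.8 and 319.7 normalized counts at 0 hours and 5.55, 8.74 and 7.11 at 24 hours, while Pf4, which does not act through CXCR2, overlapped between the groups. Cxcl2 had 1.28, 65.9 and 49.5 normalized counts at 0 hours and 1945, 483 and 1036 at 24 hours (log2 difference 4.98 ± 0.96, edgeR adjusted p = 0.12). Cxcl5 had no count in the 0-hour digits and 601, 115 and 169 normalized counts at 24 hours, which is at least 283-fold higher against 3 pooled counts (adjusted p = 0.093). Cxcl2, Cxcl3 and Cxcl5 were called with the date term, and Cxcl3 and Cxcl5 passed the filter on low counts only through their 24-hour values. Cxcl1 did not separate the groups, since it had 5.75 counts in 0-hour digit 1 but 990 and 275 in 0-hour digits 2 and 3, against 735 to 1898 at 24 hours. Of 8 tested CC chemokine and receptor genes, 4 were higher at an unadjusted p under 0.05, and the date term called Ccr1.

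Neutrophil markers followed the same pattern. Of 24 listed markers 13 passed the filter. At an unadjusted p under 0.05, 9 of them were higher and none lower, against 8.68% and 6.76% of all genes. Calls were 0 by edgeR, 8 with the date term and 8 by DESeq2. Members such as Trem1 and Lcn2 passed the filter only through their 24-hour values, so these counts do not test the list. The summed level of the listed markers was 53.2 to 87.9 CPM at 0 hours and 182 to 892 CPM at 24 hours, with the highest sum in 24-hour digit 1. S100a9, a subunit of the neutrophil protein calprotectin, had 55.6, 12.6 and 48.0 normalized counts at 0 hours and 1831, 277 and 668 at 24 hours (log2 difference 4.56 ± 0.77, edgeR adjusted p = 0.10). Lcn2, an iron-trapping antibacterial protein, went from 7.67, 3.14 and 6.004 counts to 323, 68.4 and 119 (4.85 ± 0.69, adjusted p = 0.093). Trem1, a receptor that amplifies myeloid responses, had 0, 0 and 6.004 counts and then 293, 80.1 and 143. Clec4d, a C-type lectin of myeloid cells, ran from 1.92 to 27.0 counts at 0 hours and from 201 to 597 at 24 hours. S100a8, Csf3r, Mmp9 and Il1r2 were called with the date term as well. Keratinocytes of wounded skin also make S100a8, S100a9 and Lcn2, and Ly6g, Elane, Mpo, Camp and Ltf, markers of neutrophils and their granules, did not pass the filter. In bulk tissue, more cells of a type and more RNA per cell cannot be told apart.

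Monocyte and macrophage markers did not move as a group. Of 20 listed markers 19 were tested, with 1 higher (Cd14) and 1 lower (Mertk) at an unadjusted p under 0.05, 0 calls by edgeR and 1 by DESeq2. The median log2 difference was -0.18, against 0.00 over all genes tested. Their summed level was 401 to 684 CPM at 0 hours and 434 to 593 CPM at 24 hours, so the groups overlapped. Cd14, the co-receptor for lipopolysaccharide, had 24.9, 43.9 and 45.03 normalized counts at 0 hours and 648, 122 and 289 at 24 hours, and it was called with the date term. Lyz2, the lysozyme of macrophages and neutrophils, had 295, 532 and 1232 counts at 0 hours and 616, 371 and 622 at 24 hours. Hdc, which makes histamine, went from 28.1, 20.9 and 46.5 counts to 779, 147 and 344 and was called with the date term. Of the other mast cell markers tested none was higher at an unadjusted p under 0.05, and Kit had 282 to 350 counts at 24 hours against 291 to 889 at 0 hours. Of 13 tested interferon-response genes 1 was higher at an unadjusted p under 0.05 and none lower, and edgeR and DESeq2 called 0. Of 8 tested T cell and Langerhans cell markers none reached an unadjusted p under 0.05 and 0 were called by edgeR or DESeq2.

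Wound keratins had a broad spread between the 24-hour digits. Of 16 listed wound-induced keratins and alarmins 12 were tested, and 9 were higher at an unadjusted p under 0.05, against 8.68% of all genes. Of the 12, 0 were called by edgeR, 1 with the date term (Slpi) and 8 by DESeq2. Krt6a, a stress keratin of the wound edge, had 6193, 10097 and 3310 normalized counts at 0 hours and 159309, 18143 and 33220 at 24 hours (log2 difference 3.43 ± 0.83, edgeR adjusted p = 0.14). Its partner Krt16 went from 3947, 5739 and 1337 to 131680, 14313 and 33457 (4.02 ± 0.88, adjusted p = 0.13). In both genes 24-hour digit 1 was several times above the other 24-hour digits, which still lay above all 3 digits at 0 hours. Reads of Krt6a can be shared with the closely similar Krt6b. Slpi, a secreted inhibitor of neutrophil elastase, had 4.50 to 17.9 counts at 0 hours and 2463, 105 and 251 at 24 hours. Per length, Krt16 and Krt6a reached means of 8061 and 6513 normalized TPM at 24 hours, below the 14680 of Krt10. In 24-hour digit 1, however, both lay above Krt10, at 17630 and 14700 against 13860. Krt10 is the keratin of the upper epidermis, and its mean at 0 hours was 14910.

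The other keratinocyte layers differed less. Of 10 tested basal keratinocyte genes 2 were higher and 1 lower at an unadjusted p under 0.05. In this list 6 lay above and 1 below their 0-hour range, against 11.7% and 11.6% of all genes. EdgeR called 0 of them and DESeq2 called 2. Krt14, the basal layer keratin, had 35375, 45723 and 30927 normalized counts at 0 hours and 158977, 50353 and 62810 at 24 hours (edgeR adjusted p = 0.25), while Krt5 ran from 22909 to 28591 and from 33311 to 36747. Of 21 tested suprabasal and cornified envelope genes 4 were higher and 1 lower at an unadjusted p under 0.05, 0 were called by edgeR and 2 by DESeq2. Krt2 and Krt10 overlapped between the groups. Among 15 tested genes of hard keratins in nail and hair 2 were higher at an unadjusted p under 0.05, and Krt36 had 4918, 6638 and 5827 counts at 0 hours and 11358, 7532 and 12438 at 24 hours (adjusted p = 0.19). In 13 of these 15 genes 24-hour digit 1 was the lowest of the 24-hour digits, the opposite of its place in the wound keratins.

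Of 21 keratinocyte migration genes 9 were higher and 1 lower at an unadjusted p under 0.05, against 8.68% and 6.76% of all genes. There were 0 calls by edgeR and 3 by DESeq2. The date term called Plaur, Hbegf and Inhba. Plaur, the urokinase receptor, had 32.0, 39.8 and 34.5 normalized counts at 0 hours and 818, 169 and 269 at 24 hours (log2 difference 3.56 ± 0.58, edgeR adjusted p = 0.096). Inhba, the activin A subunit, went from 49.2, 42.9 and 22.5 to 336, 140 and 188 (2.50 ± 0.41, adjusted p = 0.096). In 20 of the 21 genes 24-hour digit 1 was the highest 24-hour digit. The list's median log2 difference from the mean of the 0-hour digits was 2.10 in that digit, and 0.01 and 0.29 in the others.

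Of 17 matrix metalloproteinases and inhibitors 14 were tested, and Mmp3 was the single call. Beside it 5 were higher and 1 lower at an unadjusted p under 0.05, and the date term called Mmp9, Mmp13, Adamts4 and Timp1. Mmp13, a collagenase of skin wounds and bone, had 15.3, 37.7 and 60.0 normalized counts at 0 hours and 1059, 265 and 393 at 24 hours (log2 difference 3.99 ± 0.65, edgeR adjusted p = 0.096). Timp1, an inhibitor of these enzymes, went from 10.9, 2.09 and 45.03 to 618, 116 and 304 (adjusted p = 0.12). Timp3, another inhibitor, had 3018, 4449 and 3775 counts at 0 hours and 1745, 2330 and 2244 at 24 hours (adjusted p = 0.16). In these 3 genes the groups did not overlap. Tnc, a matrix protein of wounds, had 277, 230 and 488 counts and then 2268, 879 and 1235 (2.15 ± 0.40, adjusted p = 0.12), and with Spp1 it was called with the date term. Of 18 tested collagen genes 5 were higher and 1 lower at an unadjusted p under 0.05, against 8.68% and 6.76% of all genes. In this list 4 lay above their 0-hour range, against 11.7% of all genes, and 0 were called by edgeR. Col4a1, a basement membrane collagen named after its values were seen, had 934, 979 and 1282 counts at 0 hours and 1932, 1494 and 1860 at 24 hours (adjusted p = 0.16). Col1a2 and Col3a1, chains of fibrillar collagens, overlapped between the groups, and in both 0-hour digit 3 was the highest of the 6 digits.

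Hemoglobin genes were lower in each 24-hour digit. The 6 red blood cell genes were tested, and each had its 24-hour digits below all 0-hour digits, against 11.6% of all genes. Each was also lower at an unadjusted p under 0.05, against 6.76% of all genes. Of the 6 genes 0 were called by edgeR, 3 with the date term (Hbb-bs, Hba-a2 and Alas2) and 3 by DESeq2. Their summed level was 796 to 2305 CPM at 0 hours and 44.9 to 139 CPM at 24 hours. Hbb-bs, an adult beta globin, had 3780, 1990 and 5439 normalized counts at 0 hours and 222, 29.1 and 233 at 24 hours (log2 difference -4.52 ± 0.72, edgeR adjusted p = 0.096). Alas2, which starts heme synthesis in red cell precursors, went from 213, 101 and 381 to 29.2, 4.37 and 4.27 counts (adjusted p = 0.11). Hba-a1 and Hba-a2 are near-identical and so are the beta globin copies, so reads may be split between them.

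Immediate early genes, transcription factors switched on within minutes of a stimulus, split the 0-hour digits. Fos had 1000 normalized counts in 0-hour digit 1, of the later period, and 14358 and 13981 in digits 2 and 3, of the earlier one. That digit 1 is also the sole 0-hour digit from the right side, so period and side cannot be told apart in this split. At 24 hours Fos had 1688, 323 and 638 counts, which overlaps 0-hour digit 1 (log2 difference -3.47 ± 0.97, edgeR adjusted p = 0.18). Of 18 such genes 10 were lower and 1 higher at an unadjusted p under 0.05, against 6.76% and 8.68% of all genes. There were 0 calls by edgeR, 5 by DESeq2 and 0 with the date term. Without 0-hour digit 1, Fosb and Jun were called lower. These 2 genes are named because they were called there, after their values were seen. Zfp36, which destabilizes cytokine mRNAs, divided the 0-hour digits in the same way, with 677, 3040 and 2580 counts and then 1029, 448 and 607. Klf4, a member of the list and a factor of the upper epidermis, lay between 5235 and 9151 counts at 0 hours and between 6290 and 12668 at 24 hours.

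Among the 12 genes with lower counts that the naming rule picked were several known for roles in cell division. Aspm, a spindle pole protein, had 178, 141 and 189 normalized counts at 0 hours and 47.2, 59.7 and 37.7 at 24 hours (log2 difference -1.82 ± 0.27, edgeR adjusted p = 0.093). Kif2c, a kinesin that removes faulty chromosome attachments, went from 121, 114 and 179 to 36.1, 40.8 and 32.7. Kif23, needed for the last step of cell division, had 405, 327 and 327 counts and then 146, 176 and 126. Cenpf, a kinetochore protein, had 458 to 618 counts at 0 hours and 148 to 266 at 24 hours. Gas2l3, a linker of actin and microtubules, had 163, 145 and 176 counts and then 34.7, 29.1 and 46.2 (-2.11 ± 0.27, adjusted p = 0.083). The naming rule picked these genes by small p-values, and in each of them the groups did not overlap in normalized counts. Each was called lower with the date term, as was Depdc1a. On the authors' normalized TPM scale Aspm overlapped, with 5.13, 3.03 and 4.15 at 0 hours and 0.984, 5.23 and 0.890 at 24 hours. Cenpf overlapped there too, with 19.3, 12.3 and 22.0 and then 5.64, 13.01 and 6.53. Of 70 named genes whose groups were apart in normalized counts, 8 overlapped in normalized TPM, among them Pmp22, Osmr, Socs3 and H2-Q7.

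The cell cycle list held members on both sides, whereas those mitotic genes were named by their small p-values among lower genes. Of 16 genes, all tested, 4 were lower and 2 higher at an unadjusted p under 0.05, and 0 were called by edgeR, by DESeq2 or with the date term. Mki67, the proliferation marker Ki-67, had 2518, 1944 and 2239 normalized counts at 0 hours and 1458, 1022 and 987 at 24 hours, without overlap (edgeR adjusted p = 0.13). Ccnd1, cyclin D1, overlapped. The genes higher were Rrm2 (log2 difference 0.93) and Ccne1 (1.18), which act at the start of DNA synthesis. Without 24-hour digit 1 these differences were 0.29 and 0.55, and the groups of Ccne1 overlapped. The genes lower were Mki67, Ccnb1 (-0.78), Ccnb2 (-0.86) and Plk1 (-0.96), which act in mitosis. Rrm2, Ccne1, Ccnb1, Ccnb2 and Plk1 are named after their values were seen.

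Other named genes lay apart in the 2 groups. Dgat1, the last enzyme of triglyceride synthesis, had 92.7, 100 and 91.6 normalized counts at 0 hours and 348, 294 and 225 at 24 hours (log2 difference 1.60 ± 0.23, edgeR adjusted p = 0.093). Skap2, an adaptor in myeloid cell adhesion, went from 112, 134 and 138 to 366, 328 and 283. Smim3 and the olfactory receptor gene Olfr1033 were likewise higher in each 24-hour digit, at 135 to 303 against 28.1 to 48.1 and at 198 to 444 against 36.4 to 43.5 counts. Lower were Hdac5, a histone deacetylase, at 143, 217 and 198 counts against 440, 459 and 483, and Btc, an EGF receptor ligand, at 54.1, 72.8 and 56.2 against 244, 239 and 146. Gdf10, a member of the TGF-beta family, had 232, 182 and 449 counts at 0 hours and 40.3, 37.9 and 69.7 at 24 hours (-2.51 ± 0.41, adjusted p = 0.096). Itih5, a hyaluronan-binding protein, and Fam212b were lower by 1.53 and 1.14 on the log2 scale. The naming rule picked these genes by small p-values, without a condition on overlap, and in each of them the groups did not overlap in normalized counts. All but Itih5 and Fam212b were called with the date term.

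Lists of blood vessel, nerve, skeleton and metabolism genes held no call by edgeR. Selp, the P-selectin by which activated endothelium captures leukocytes, had 42.2, 135 and 66.0 normalized counts at 0 hours and 902, 393 and 312 at 24 hours (log2 difference 2.73 ± 0.53, edgeR adjusted p = 0.12), and it was called with the date term. Of the other 14 endothelial genes none reached an unadjusted p under 0.05, and Pecam1 overlapped. Of 11 smooth muscle and pericyte genes 4 were lower at an unadjusted p under 0.05, against 6.76% of all genes. Of the 11, 5 lay below their 0-hour range, against 11.6% of all genes, with 0 calls by edgeR or DESeq2. Rgs5, a pericyte gene, had 1993, 1941 and 2154 counts at 0 hours and 583, 1227 and 1584 at 24 hours. Pmp22, a myelin protein, had 457, 582 and 747 counts and then 242, 280 and 449. Of 12 tested osteoblast and osteocyte genes 2 were lower at an unadjusted p under 0.05 and 1 was called by DESeq2, and Ibsp, a bone matrix protein, had 245 to 606 counts at 0 hours and 507 to 882 at 24 hours. Of 11 oxidative stress and metallothionein genes 5 were higher at an unadjusted p under 0.05, against 8.68% of all genes, and 7 lay above their 0-hour range, against 11.7%, while 0 were called by edgeR and 1 by DESeq2. Their log2 differences ran from 0.26 to 1.13. Of 16 tested hypoxia and glycolysis genes 3 were higher. Of 16 tested limb patterning and skeletal signalling genes 3 were lower and none higher, and Wnt5a and Bmp7 overlapped. Of 14 clock genes 2 were higher and 3 lower, and Clock had 1487, 1950 and 1496 counts at 0 hours and 1284, 1003 and 1129 at 24 hours.

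**Figure D2:**
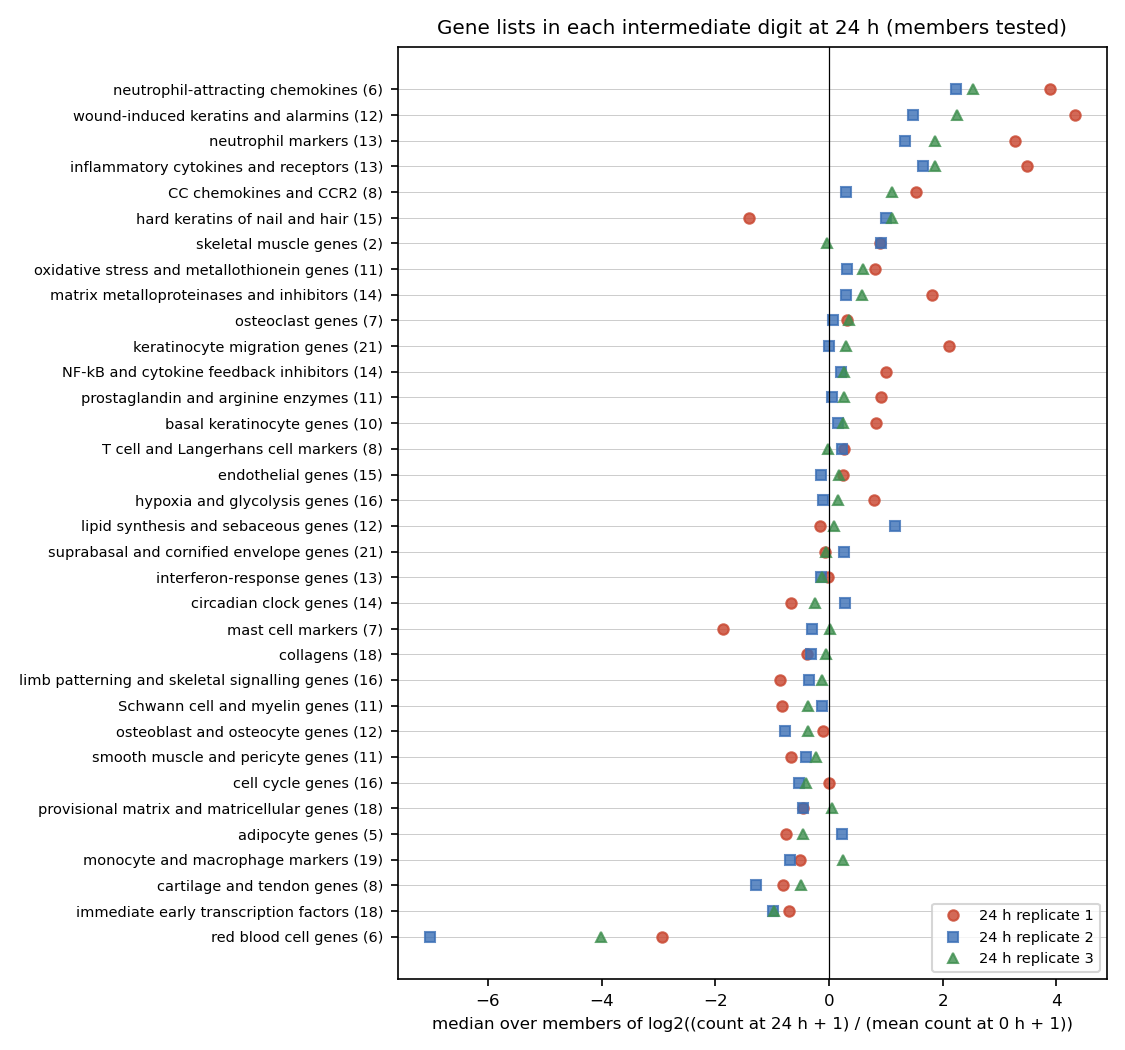
Median over the tested members of each gene list of the log2 ratio between a 24-hour digit and the mean of the 3 digits at 0 hours, 1 marker per 24-hour digit, with the number of members tested in parentheses. Digit 1 (red circles) is farthest to the right for wound keratins (4.33), neutrophil markers (3.27) and keratinocyte migration genes (2.10) and farthest to the left for hard keratins (-1.41), while red blood cell genes lie to the left in all 3 digits.

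The 24-hour digits thus differed among themselves in size more than in direction for the inflammatory lists. The neutrophil marker list was highest in digit 1 for 13 of 13 tested members, the wound keratin list for 12 of 12 and the cytokine list for 12 of 13. For hard keratins it was 0 of 15 and for smooth muscle and pericyte genes 0 of 11, and this share was not counted over all genes. The summed wound keratins and alarmins were 59250 CPM in 24-hour digit 1, 6347 in digit 2 and 12870 in digit 3, against 996 to 3126 at 0 hours. Over all genes tested, digit 1 was more than 2-fold above both other 24-hour digits in 539 genes and more than 2-fold below both in 1305. These numbers were 177 and 309 for digit 2 and 175 and 70 for digit 3. Mmp3 was an exception to this spread, at 5384, 4287 and 5491 normalized counts.

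The same interval was tested in digits labelled non-regenerative, in which more of P3 was removed (labelled 62%, 62% and 75% at 0 hours and 63%, 68% and 73% at 24 hours). Of these 6 digits, those at 62%, 62% and 63% lie below the level that defines a non-regenerative cut in the methods and within its intermediate range, so the 2 kinds of digit are separated by their labels and not by that definition. Their 24-hour digits come from the same dates as the intermediate ones, but in other numbers. Non-regenerative 24-hour digits 1 and 3 fall in the earlier period and digit 2 in the later one. At 0 hours their digit 1 is of the earlier period and digits 2 and 3 are of the later one (November). This balance is the reverse of that of the intermediate digits, so a difference between the periods enters the comparison of the 2 responses. In a fit of the 12 digits, 2576 of 13996 genes (18.4%) differed between 24 and 0 hours in non-regenerative digits at an adjusted p under 0.05. This count rests on 12 libraries and has no fold rule. It is therefore not comparable with the number of calls given above for the intermediate digits. The difference between the 2 responses, an interaction term, passed an adjusted p of 0.05 in 0 of 13996 genes in edgeR, with 1132 genes (8.09%) at an unadjusted p under 0.05. With the date period as a term, edgeR called 0 as well. DESeq2 called 31 genes (0.221%), and edgeR called 178 (1.23%) when intermediate 24-hour digit 1 was left out. The 24-hour change was therefore not shown to differ between the kinds of digit for any gene in the main test.

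Mmp3 had 5345, 4224 and 5443 normalized counts of this fit in the intermediate and 5879, 8919 and 9628 in the non-regenerative digits at 24 hours. Its 0-hour values were 125, 61.1 and 139 against 46.6, 21.1 and 65.0. At 0 hours the ranges overlapped, at 24 hours the intermediate digits lay below the others, and the difference of the log2 fold changes was -1.998 ± 0.53 (edgeR adjusted p = 0.50). Tnc had 867 to 2251 counts in intermediate and 2288 to 3887 in non-regenerative digits at 24 hours, a difference of -1.93 in the log2 fold change with the same adjusted p. Krt6a was 158100, 17880 and 32930 in the intermediate and 145000, 129600 and 129000 in the non-regenerative digits at 24 hours. So intermediate digit 1 lay above the 3 non-regenerative digits, and the others lay below them. S100a9 was 1817, 273 and 663 against 1769, 1655 and 1869. Other genes were uneven among the non-regenerative digits at 24 hours too. Il1b had 1972, 490 and 4923 counts there, and Trem1 had 331, 67.6 and 768. In both genes the lowest was digit 2, the sole non-regenerative 24-hour digit of the later period. The smallest p-values of the difference belonged to Atp12a, H2-Q7, Skint4, Cep63 and Mtus1, each with an adjusted p of 0.50. At 24 hours Skint4, of a family of keratinocyte genes that select skin T cells, had 4.78, 1.88 and 4.35 counts in the non-regenerative 24-hour digits and 23.4, 118 and 55.0 in the intermediate ones. Cep63, a centrosome protein, had 185, 184 and 193 counts against 262, 352 and 272. Its 0-hour values also lay apart the other way, at 404, 370 and 384 in the non-regenerative and 271, 271 and 264 in the intermediate digits. Mtus1, a microtubule-associated protein, had 215, 224 and 232 counts against 382, 428 and 455, after overlapping 0-hour values, as Skint4 had. In these 3 genes the intermediate 24-hour digits lay above the non-regenerative ones.

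**Figure D3:**
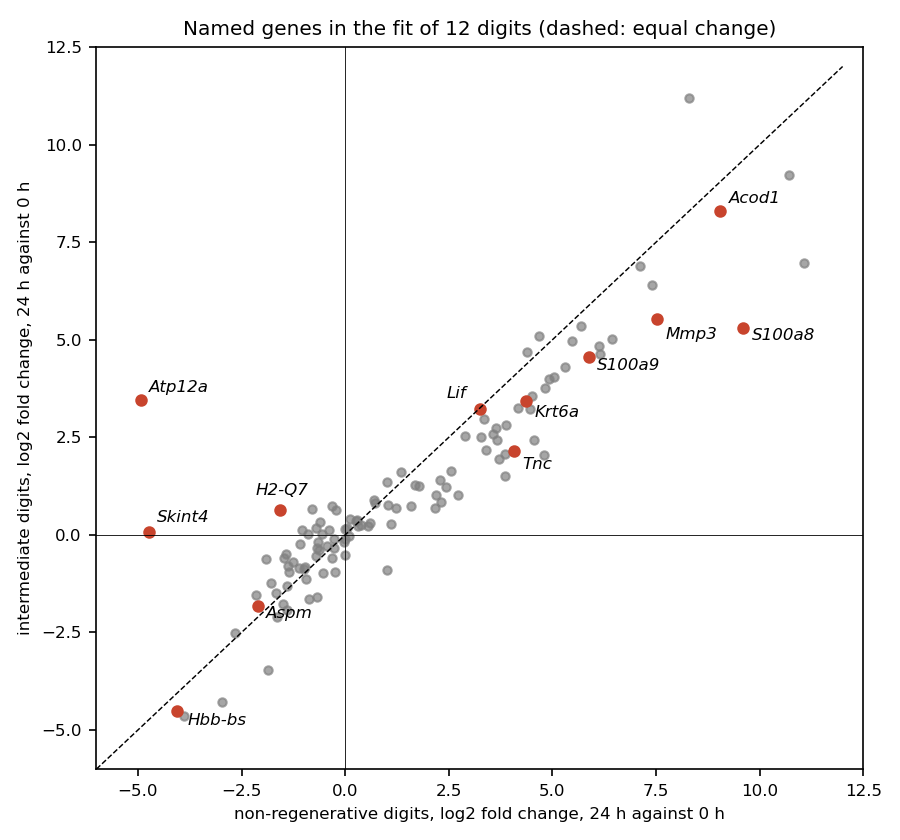
Log2 fold change from 0 to 24 hours of the named genes in non-regenerative digits (x axis) and intermediate digits (y axis) in the fit of 12 digits, 1 point per gene, with the dashed line at equal change. Mmp3 (7.53 against 5.53) lies below the line and Atp12a (-4.93 against 3.45) far above it, and no point differs from the line at an adjusted p under 0.05.

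At later times the intermediate digits were read on the authors' normalized TPM scale, as a description without a test. Mmp3 had a mean of 593 normalized TPM at 24 hours, 44.2 ± 18.1 at 14 days and 27.1 ± 10.9 at 21 days (SD, n = 3), still above the 13.2 of 0 hours. Il1b went from 162 ± 137 at 24 hours to 30.3 ± 43.2 at 14 days and 0.363 ± 0.486 at 21 days. S100a9 ranged from 5.73 to 1645 at 14 days, so 14-day digits spread more than those at 24 hours (118 to 783), and it ranged from 0 to 15.9 at 21 days. Krt6a had means of 6513, 1595 and 1267 at 24 hours, 14 days and 21 days, against 623 at 0 hours. Hbb-bs stayed low, with means of 11.3 at 14 days and 9.02 at 21 days against 1451 at 0 hours. Mki67 had 23.8 ± 5.17 at 24 hours and was back at 42.9 ± 5.86 at 14 days and 49.6 ± 1.202 at 21 days, near the 47.3 of 0 hours. In the non-regenerative series, which has more time points, mean Mmp3 was 32.8 at 3 hours, 363 at 6 hours, 945 at 12 hours and 948 at 24 hours.

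**Figure D4:**
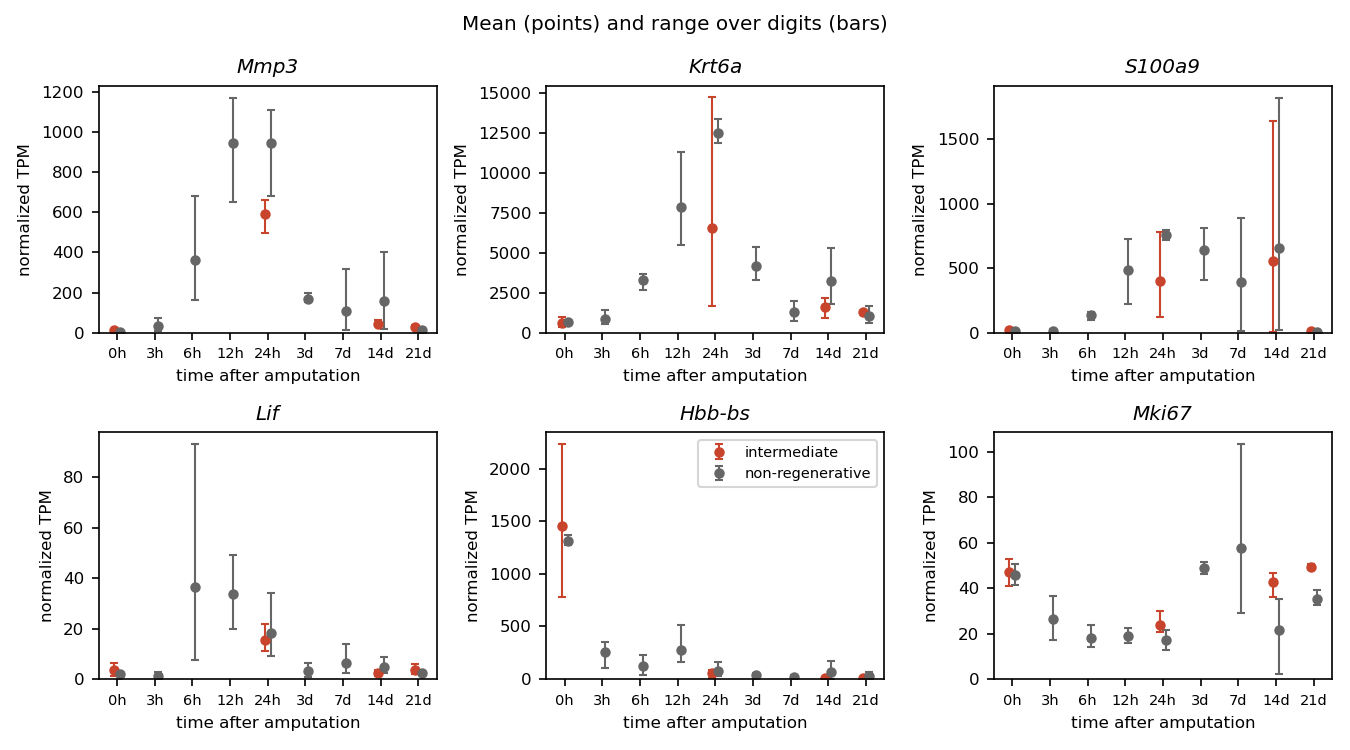
Mean normalized TPM (points) and range over digits (bars) of 6 genes against time after amputation, in intermediate digits (red, 4 time points) and non-regenerative digits (grey, 9 time points). Intermediate Mmp3 is at 593 at 24 hours and 44.2 at 14 days, Krt6a has its widest range at 24 hours, and Mki67 dips to 23.8 at 24 hours and stands at 49.6 at 21 days.

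The study compared digit genes with bone marrow-derived macrophages treated in culture for 24 hours into an M1 state, with interferon gamma and lipopolysaccharide, or an M2 state, with interleukin-4, beside untreated M0 cells, with 3 libraries each. Unlike the digits, these cells came from female mice, of 6 to 8 weeks. Against M0, 20.1% of genes tested were called higher and 26% lower in M1, and 11% higher and 11.3% lower in M2. Both genes that rose in the intermediate digits were among those higher in M1. Acod1 went from a mean of 141 normalized counts in M0 to 181992 in M1 (log2 fold change 10.33), and Mmp3 from 4.29 to 170 (5.22). The SD over the 3 M1 libraries was 4017 for Acod1 and 139 for Mmp3, so Mmp3 was low and uneven there. Acod1 was also called higher in M2, from a mean of 178 to 6526 normalized counts (5.19), and Mmp3 did not pass the filter on low counts in that comparison. Of 294 genes that were more than 2-fold higher in the 24-hour digits at an unadjusted p under 0.05 and tested in both, 151 (51.4%) were called higher in M1, against 18.2% of the 11693 genes tested in both, and these 151 were 7.10% of the 2126 genes higher in M1. In M2 it was 90 of 291 (30.9%) against 9.75%, and the 90 were 7.84% of the genes higher in M2. The 294 genes are a choice made after the data were seen, since the main test called 2. The digit genes Aspm, Kif2c, Kif23, Cenpf and Mki67 were lower in M1, with log2 fold changes from -7.36 to -4.04. In M2 their log2 fold changes ran from -1.82 to -0.94, and all but Kif2c were called lower. S100a9 and S100a8, higher in the 24-hour digits, were lower in M1 (-5.56 and -1.58).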

How the data were processed

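Poly(A) RNA of wound bed tissue from P3 was sequenced from 41 digits and RNA from 9 macrophage cultures, and digits were assigned to groups, levels and dates from their labels. The authors mapped reads to mouse genes with Bowtie and deposited an unnormalized expected count per gene from RSEM 1.2.3, on mm10 (GRCm38) per the labels. The authors also deposited a signal, TPM after their median-by-ratio scaling of the libraries, called normalized TPM here and used for time courses and for comparing genes per length. In these tables, 26 gene names turned into dates were restored. Reads with several hits were shared out by RSEM, so copies of gene families and overlapping genes, such as Il1b with Il1bos and Timp1 with Syn1, can exchange counts, and the strand setting is not given in the sources used here.

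Expected counts were rounded and the 6 intermediate libraries were tested with edgeR 4.0.16 in R 4.3.3 (filterByExpr, TMM, glmQLFit, glmQLFTest). Calls needed a Benjamini-Hochberg adjusted p under 0.05 and more than a 2-fold change of mean normalized count plus 1, the fold rule of the paper, whose EBSeq test was not run here. Normalized counts are on the scale of this fit. The standard error is the absolute log2 fold change over the square root of the F statistic. The interaction was fitted on 12 libraries (intermediate and non-regenerative, 0 and 24 hours), with the adjusted p alone as threshold, and macrophages were compared with M0 in the same way. The fits were tested on simulated data. Replicates differed by more than counting error, with a chi-square per degree of freedom of 25.3 to 72.7 between replicate pairs. A count of 0 allows up to 3 counts, and intervals cover counting error only.

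Alternatives were RLE scaling, DESeq2 1.42.0, limma 3.58.1 with voom or on log2 of normalized TPM plus 1 or 0.1, no low-count filter, no fold threshold, each digit left out, the date period as a term, and 1 fit of all 41 digits. The members of the comparison and the 35 gene lists were chosen with earlier results of these data known. Genes were named by a rule. Per direction it took the 12 called genes of largest change whose groups did not overlap. Where fewer were called, it filled up with the genes of smallest p, without a condition on overlap. Both kinds needed a mean of at least 100 normalized counts in the higher group. From each list it took up to 4 called members or else 2 of highest mean. From the interaction it took the 5 genes with the smallest p. Members of a list called with the date period as a term (24 more genes) were named after the data were seen. Of the 118 genes that these rules gave, those with flat values were left to the counts of their lists, and some are not reported here. Markers were not used to assign any digit to a group.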

Additional observations from a re-analysis of the deposited data

Results flagged for a closer look

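In 2 named genes every intermediate digit at 24 hours lay above every intermediate digit at 0 hours, while every non-regenerative digit at 24 hours lay below every one at 0 hours. Atp12a, a subunit of a proton and potassium pump that overlaps the antisense gene Gm10873, had 10.01, 4.14 and 2.98 normalized counts in the intermediate digits at 0 hours and 11.02, 128 and 65.6 at 24 hours. In non-regenerative digits it had 23.3, 16.4 and 35.5 at 0 hours and 0, 1.88 and 0 at 24 hours, so the fitted difference of the log2 fold changes, which rests on counts near 0, was 8.38, with an edgeR adjusted p of 0.50 for the interaction. H2-Q7, a class I histocompatibility gene whose reads can be shared with near-identical copies, had 50.1, 56.9 and 40.3 counts and then 97.8, 68.9 and 63.4 in intermediate digits, whose groups overlapped in normalized TPM. It had 111, 108 and 120 counts and then 33.5, 31.0 and 50.7 in non-regenerative digits, a difference of 2.20 with the same adjusted p. Over 13996 genes, this pattern occurred in 23 and the reverse in 25, while 959 genes lay above their 0-hour range in both kinds of digit and 789 below.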

How the results depend on the processing

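Mmp3 was called higher in each of the 17 alternatives to the main test and Acod1 in 8 of 17. Against 2 calls in the main test, there were 2 with RLE scaling, without the fold threshold and with limma on log2 of normalized TPM plus 1, 70 without the low-count filter, 135 with the date period as a term, 20 with all 41 digits in 1 fit and 24 when that fit also held the date period, 350 with DESeq2, 1 with limma-voom, 8 with limma on log2 of normalized TPM plus 0.1, and 1 with limma without a filter. Leaving out each digit gave 1 to 37 calls, and the cause of these differences was not tested. The interaction with non-regenerative digits had 0 calls in the main test, 31 with DESeq2, and 0 to 178 when each of the 12 digits was left out, with 178 without intermediate 24-hour digit 1. The 2 genes also higher in M1 macrophages became 1 to 20 when each digit was left out, 66 with the genes called with the date term and 151 with the genes chosen at an unadjusted p under 0.05 and over 2-fold, and these last 2 choices were made after seeing the data. Listed genes called were 1 in the main test, 37 with the date period as a term and 1 to 16 when each digit was left out.

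Of 117 named genes tested, 20 changed sign in at least 1 fit, none of them called and none beyond 1.02 on the log2 scale in the main test, and in 21 the differences within the earlier and the later period had opposite signs. With the date term the log2 difference was 0.12 for Lyz2, -0.031 for Krt10, 0.12 for Pecam1 and -0.30 for Skint4. When each digit was left out it ran from -0.71 to 0.38 for Lyz2, -0.48 to 0.13 for Krt2, -0.086 to 0.089 for Krt10, -1.01 to 0.021 for Col3a1, -0.87 to 0.025 for Col1a2, -0.38 to 0.13 for Pecam1, -0.35 to 0.044 for Ccnd1, -0.63 to 0.46 for Skint4, -0.021 to 0.20 for Cep63 and -0.19 to 1.66 for Hbegf. No paired analysis was possible, since the 0-hour and 24-hour digits carry different dates and nothing in the labels pairs them. The labels give a mark, a date and a side but no replicate number. The replicate numbers used here follow the order of deposition. The comparison of promoter motifs between gene groups was void, since too few promoters matched. Genes near 0 counts at 0 hours, such as Acod1, are limited by depth.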
